A study of Mus musculus with 18 samples.

Results

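Splenic gamma delta T cells were compared with 8 other immune cell populations of mice that had received interferon gamma (IFNg). The gamma delta T cells are the 2 arrays (replicates 2 and 3) of cells sorted as TCRgd+ TCRB-, out of 18 arrays in all. Each of the other 8 populations also had 2 arrays. Those populations were dendritic cells (DC, CD11c+ MHCII+ Flt3+), granulocytes (GN, Ly6G+), macrophages of the peritoneal cavity (MF, ICAM2+ and positive for the surface product of Adgre1), NK cells (NK1.1+ TCRB-), NKT cells (NK1.1+ TCRB+), CD4 T cells (T4, CD4+ TCRB+), CD8 T cells (T8, CD8+ TCRB+) and regulatory T cells (Treg, CD4+ TCRB+ CD25+). All but the macrophages came from the spleen. Every array, the gamma delta T cells included, was of male C57BL/6 mice aged 6 weeks at 2 h after 10000 U of IFNg given under the skin, so each difference below is one between cell types of treated mice. Untreated mice were not analysed here. The labels do not say whether the 2 arrays of a population came from separate mice, so the p-values measure the spread between arrays, which may be technical.

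Gamma delta T cells are T lymphocytes whose antigen receptor is a heterodimer of a gamma and a delta chain in place of the alpha and beta chains of conventional T cells. They signal through the same CD3 complex. In the mouse they leave the thymus already committed, some to making IFNg and some to making IL-17, the second kind responding to IL-23 and IL-1. They are a small part of the T cells of the spleen and are more common in skin, gut and other barrier tissues.

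Expression was given for 24922 probe sets, of which 21425 carried 1 gene symbol, and the tests ran on 19752 genes. The scale throughout is log2 of the deposited intensity, whose median over all genes and arrays was 7.19. The pair of gamma delta T cell arrays correlated at 0.9958 across genes, within the range of 0.9901 to 0.996 for the pairs of all populations. Across genes, gamma delta T cells correlated with NKT cells at 0.9815 to 0.9849, with CD4 T cells at 0.9808 to 0.9832 and with NK cells at 0.9663 to 0.968. The corresponding values were 0.9182 to 0.9278 for dendritic cells and 0.8559 to 0.8579 for granulocytes. These are descriptions over genes, which are not independent replicates. Between the 2 gamma delta arrays, 7 genes were at least 2-fold higher on replicate 3 and 8 at least 2-fold lower.

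The label was checked first with the genes of the gamma delta receptor. Only 2 of 20 listed gamma and delta receptor genes had a probe set that named no other gene, Trgv1 and Trdv2-2, each a variable segment that forms part of the antigen binding site of the gamma or the delta chain. For Trdv2-2, the level was 12.44 and 12.34 on the gamma delta arrays, whereas the 16 other arrays ran from 4.98 through a median of 5.69 to 7.39. Both gamma delta arrays lay far above every other array, and the NK cells were the next in order at a mean of 7.36. The difference from the mean of the 8 other populations was 6.49 ± 0.15 (standard error, SE), a 90.1-fold higher intensity (limma, adjusted p = 2.5e-14). Trgv1 stood at 12.95 and 13.02, against 4.96 to 11.89 on the other arrays with a median of 7.14. Its order among the others was NKT cells at a mean of 11.89, NK cells at 9.42, CD4 T cells at 8.53, Treg at 7.93 and dendritic cells at 6.60, with the remaining populations below. The gamma delta T cells exceeded the mean of the 8 by 5.28 ± 0.16 (adjusted p = 7.8e-13) and the NKT cells by 1.10 (2.15-fold, adjusted p = 0.0024). Gamma variable segments resemble one another and rearranged or germline transcripts cannot be told apart on this array, so the assignment of the Trgv1 signal to that segment alone is uncertain. With the replicate number as a block, the distance of Trgv1 to the NKT cells was 0.9979, just under the 2-fold limit.

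The third marker named for these cells was Il23r, the receptor chain specific for IL-23. Its level was 9.60 and 9.63, while the 16 other arrays ran from 4.91 to 6.31 with a median of 5.46. No other population came near, the NKT cells being nearest at a mean of 6.18. The difference was 4.13 ± 0.12 from the mean of the 8 (17.5-fold, adjusted p = 4.8e-13) and 3.44 from the NKT cells. Genes used or usable in sorting were read next to the gate. Cd3e, a subunit of the CD3 complex, was at 12.79 and 13.00, with NKT, CD4, CD8 and Treg cells at means of 12.79 to 12.92 and NK cells at 8.56. Cd4 was at 6.99 and 7.52 against 11.99 in CD4 T cells, and Cd8a at 7.54 and 7.59 against 12.26 in CD8 T cells. Klrb1c, the gene of the NK1.1 antigen, was at 9.08 and 8.79, between the 5.67 of Treg and the 12.11 of NKT cells. These markers were proposed with results of these data known, so they describe the sort and are no independent evidence of it.

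The promoters of a few genes that set gamma delta T cells apart are shown here because these genes were high together in one population. Of the 17 genes that stood above every other population, described below, 11 had an entry in the RefSeq promoter table (GRCm38.p6). Each entry covers 250 bases before to 50 after a start of the gene, 300 in all. Where a gene had several entries, only that of the lowest coordinate was searched, which on the minus strand is the start farthest downstream. The sequence AGGTCA, the core recognised by many nuclear receptors, was searched for on both strands. It was present in 5 of the 11 (5830411N06Rik, Il23r, Pdcd1, Prrg4 and Sox4), and in 14.1% of the 15483 tested genes with an entry. The SOX-type core ACAAT was present in 5 of the 11 against 26.5% of the same genes, and ACAAAG in 3 of the 11 against 16.7%. Each motif was searched with its reverse complement. ACAAT and ACAAAG share their first letters, and the end of ACAAAG can run into AGGTCA, so the 3 counts are not independent of each other. Capitals mark AGGTCA or its reverse complement TGACCT. The motifs and genes were chosen after the values were seen, and a match is a description of letters, not a bound site.
Il23r, chr6:67491806-67492105, minus strand: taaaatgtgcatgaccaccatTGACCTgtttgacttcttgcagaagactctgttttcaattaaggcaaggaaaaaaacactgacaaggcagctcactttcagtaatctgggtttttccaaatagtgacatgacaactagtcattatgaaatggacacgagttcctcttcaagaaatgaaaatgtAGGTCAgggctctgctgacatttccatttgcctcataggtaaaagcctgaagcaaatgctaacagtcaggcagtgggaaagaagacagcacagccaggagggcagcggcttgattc
5830411N06Rik, chr7:140247051-140247350, plus strand: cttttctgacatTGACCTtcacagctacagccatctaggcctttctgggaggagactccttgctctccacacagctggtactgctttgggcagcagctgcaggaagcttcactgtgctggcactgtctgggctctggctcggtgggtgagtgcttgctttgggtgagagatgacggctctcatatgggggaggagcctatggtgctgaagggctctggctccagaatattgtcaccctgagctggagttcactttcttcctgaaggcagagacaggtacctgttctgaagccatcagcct
Sox4, chr13:28953650-28953949, minus strand: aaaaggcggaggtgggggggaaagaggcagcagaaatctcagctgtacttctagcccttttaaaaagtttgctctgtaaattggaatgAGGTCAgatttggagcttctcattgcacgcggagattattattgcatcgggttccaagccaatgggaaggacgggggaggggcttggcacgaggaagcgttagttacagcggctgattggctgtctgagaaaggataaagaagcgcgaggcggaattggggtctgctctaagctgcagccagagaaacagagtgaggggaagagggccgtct
The Il23r window holds the motif once on each strand, and the other windows hold it once.

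Which genes were highest in gamma delta T cells of all 9 populations was asked by requiring an adjusted p under 0.05 and at least 2-fold against each of the 8 others. There were 17 such genes, 0.0861% of those tested. They held the gamma delta receptor (Trdv2-2, Trgv1), cytokine and inhibitory receptors (Il23r, Pdcd1), transcriptional regulators (Myb, Sox4, Sox5, Prdm16), a Src-family kinase (Blk), and genes of mast cells and basophils (Cpa3, Ms4a2). The others were 5830411N06Rik, Gria3, Abi3bp, Prrg4, Arpp21 and the alpha chain segment Trav14-1. No gene was below each of the 8 others by these criteria in limma, nor at an unadjusted p under 0.05 with 2-fold. At any fold, 7 genes were below each at an unadjusted p under 0.05.

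**Figure D1:**
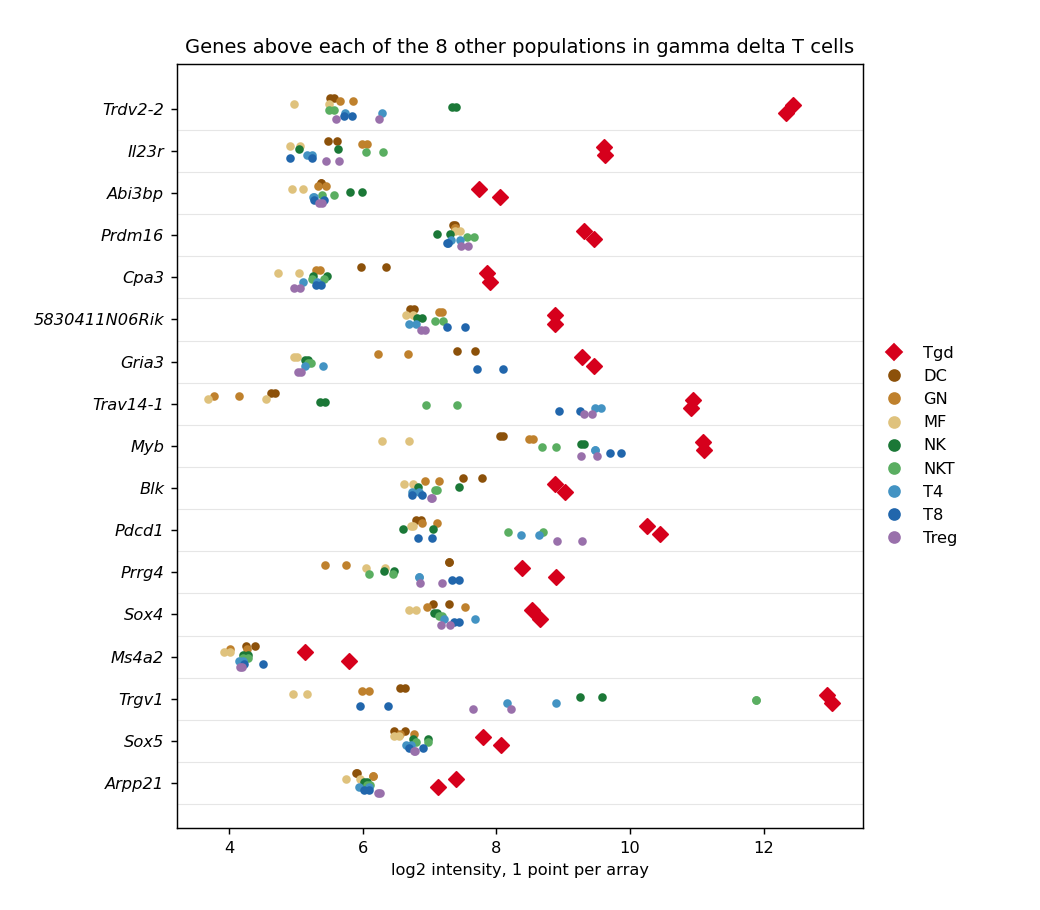
The 17 genes that passed against each of the 8 other populations, with log2 intensity on the horizontal axis and 1 point for each of the 18 arrays (red diamonds, gamma delta T cells, Tgd; circles, the other populations). The red diamonds lie to the right of every circle in each row, by 5.02 from the nearest population mean for Trdv2-2 and by 1.02 for Arpp21.

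Pdcd1 encodes PD-1, an inhibitory receptor induced by antigen receptor signalling. It was at 10.25 and 10.45 in gamma delta T cells, and between 6.60 and 9.27 elsewhere with a median of 7.05. The order below was Treg at 9.09, CD4 T cells at 8.50 and NKT cells at 8.44, with the CD8 T cells at 6.93 near the myeloid cells. The gamma delta T cells exceeded the Treg by 1.25 (2.39-fold) and the mean of the 8 by 2.80 ± 0.14 (adjusted p = 1.6e-10).

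Among regulators, Myb, a transcription factor of progenitors and developing lymphocytes, was at 11.09 and 11.11, whereas the other arrays ran from 6.28 through 9.08 to 9.86. Its distance to the nearest population, the CD8 T cells, was 1.32. Prdm16, a zinc finger regulator better known from fat and stem cells, was at 9.30 and 9.46 against 7.12 to 7.67. That difference was 1.99 ± 0.08 from the mean of the 8 and nearly the same from the NKT cells, at 1.77, since the other populations lay close together. Sox4 and Sox5 belong to the SOX family of DNA-binding factors, Sox4 being known for the maturation of IL-17-producing gamma delta T cells. Sox4 was at 8.53 and 8.65 against 6.69 to 7.68, and Sox5 at 7.80 and 8.07 against 6.46 to 6.98. The gaps to the nearest population were 1.14 and 1.05. The call of Sox4 was lost without CD4 T cell replicate 2 (gap 0.91), and that of Sox5 without NK replicate 2 (0.96), NKT replicate 2 (0.96) or gamma delta replicate 3 (0.91). Sox5 and Arpp21, a gene of immature lymphocytes and neurons at 7.39 and 7.12 against 5.75 to 6.25, were named after their values were seen. Arpp21 missed the 2-fold limit without gamma delta replicate 2 (gap 0.88) and under quantile normalization (0.995) or median centring (0.99).

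Several of the 17 encode surface or matrix proteins. 5830411N06Rik, also called Scart2, is a scavenger receptor of the group that marks gamma delta T cells. Its level was 8.87 and 8.88 against 6.64 to 7.54, and the gap to the CD8 T cells was 1.47. Gria3, a subunit of the AMPA-type glutamate receptor, was at 9.29 and 9.46 and had a wide spread elsewhere, with CD8 T cells at 7.91, dendritic cells at 7.55 and granulocytes at 6.45 but the other populations between 4.99 and 5.27. It exceeded the mean of the 8 by 3.43 ± 0.11 and the CD8 T cells by 1.47. Abi3bp, an extracellular matrix binding protein, was at 7.74 and 8.06 against 4.94 to 5.99. Prrg4, a membrane protein with a gamma-carboxyglutamate domain, was at 8.38 and 8.90 against 5.43 to 7.44, and its gap of 1.25 fell to 0.99 without gamma delta replicate 3. The genes just outside the limit were Pde5a with a gap of 0.86 to the nearest population, Il17re with 0.83 and Cd163l1 with 0.80.

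Trav14-1 is a variable segment of the alpha chain, whose locus encloses the delta chain locus. The used probe set read 10.94 and 10.91 in gamma delta T cells, above CD4 T cells at 9.52, Treg at 9.37 and CD8 T cells at 9.09. A second probe set of the same gene gave a difference of only 0.46 from the mean of the 8 and was -0.75 from the mean of the other lymphoid populations, and the mean of both probe sets put gamma delta T cells at -0.42 from the nearest population. The segment has close relatives in the genome, so this gene is reported as uncertain. Of 6 measured alpha and beta segments, 4 were lower than the mean of the other lymphoid populations and Trav14-1 was higher. In gamma delta T cells Trav12-2 was at 3.17 and 3.22 against 6.40 in CD4 and 6.87 in CD8 T cells, and Trav7d-4 at 5.25 and 5.73 against 8.68 and 7.70. Trbv1 was at 9.35 and 9.28, against 11.00 to 11.70 in the 4 populations sorted as TCRB+, with granulocytes at 10.72 and NK cells at 8.33. Trbv1 and the list of segments were looked at after the values were seen. Against the mean of the 5 other lymphoid populations (NK, NKT, CD4, CD8 and Treg), Trav12-2 differed by -2.09 and Trav7d-4 by -1.77 (adjusted p = 2.3e-06 and 5.9e-06).

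Against the mean of the 8 others, 245 genes (1.24% of those tested) were higher in gamma delta T cells and 254 (1.29%) lower, at an adjusted p under 0.05 and 2-fold. In 218 of the 245 the highest other population was a lymphoid one, and gamma delta T cells were the highest of all 9 populations in 64. Of the 254 lower genes, 245 had dendritic cells, granulocytes or macrophages as the highest population, and 240 were not lower against the 5 other lymphoid populations. The contrast with those 5 alone called 127 genes higher (0.643%) and 27 lower (0.137%). Against single populations the share of all genes that was higher or lower was 3.5% and 6.06% for dendritic cells, 12% and 7.69% for granulocytes, 5.08% and 8.5% for macrophages, 1.79% and 1.97% for NK cells and 1.11% and 0.881% for NKT cells. It was 1.2% and 0.608% for CD4 T cells, 1.3% and 0.365% for CD8 T cells and 1.19% and 0.866% for Treg. The counts of list members below are to be read beside these shares. For the mean of the 8 they were 1.24% higher and 1.29% lower, and for the lymphoid mean 0.643% and 0.137%. Leaving the macrophages out of the mean changed the count of lower genes to 148, and leaving the dendritic cells out to 159.

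**Figure D2:**
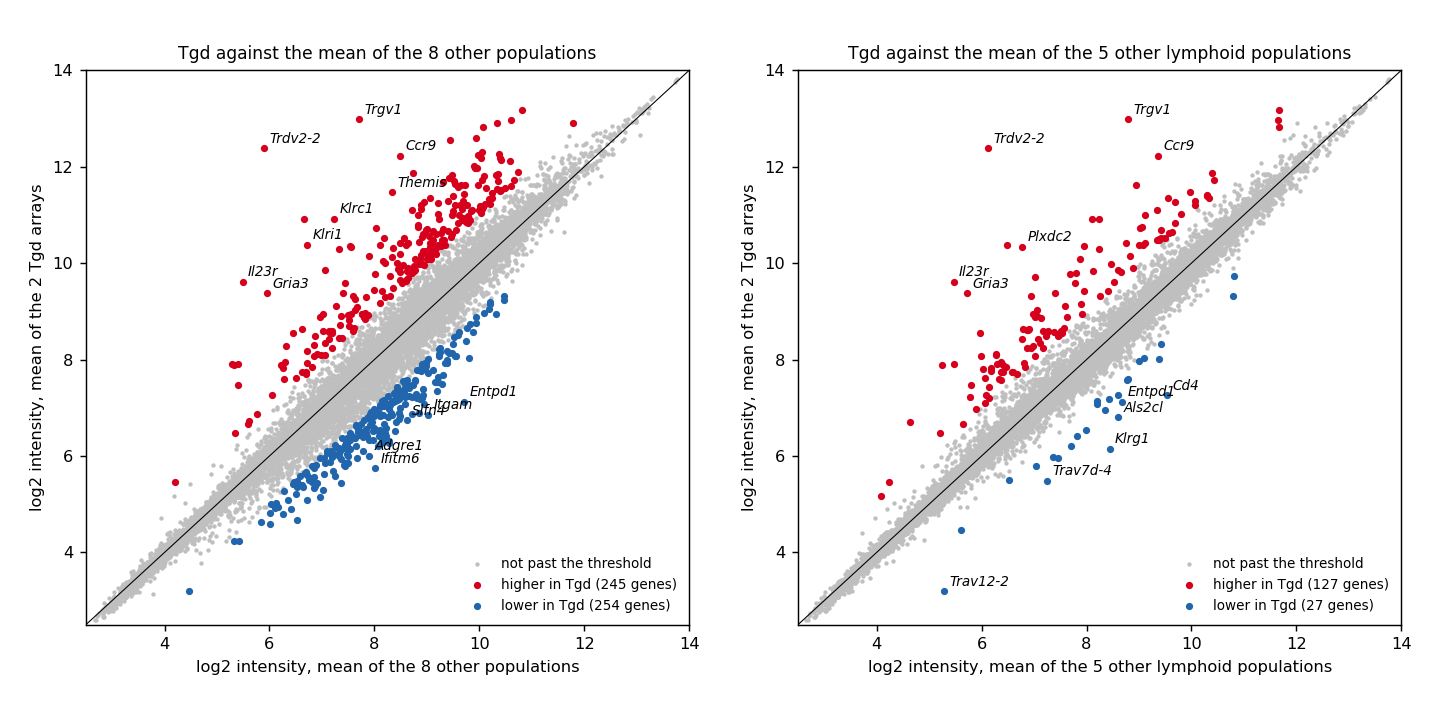
Mean log2 intensity of the 2 gamma delta T cell arrays (Tgd, vertical axis) against the mean of the 8 other populations (left) and of the 5 other lymphoid populations (right), 1 point per gene over 19752 genes. Red points are the 245 and 127 genes that were higher and blue points the 254 and 27 that were lower. Of the labelled genes, Trdv2-2, Trgv1 and Il23r stand farthest above the line of equality. The unlabelled Trav14-1, whose probe sets disagree, lies 4.26 above it on the left.

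After the receptor genes and Il23r, the named genes that were highest against the mean of the 8 were Ccr9, Klrc1, Klri1, Gria3, Themis and Dapl1. Ccr9, the receptor for the gut and thymus chemokine CCL25, was at 12.17 and 12.27. CD8 T cells followed at 11.51, NKT cells at 11.25, Treg at 8.86 and CD4 T cells at 8.74, and NK cells were at 6.45. The difference was 3.74 ± 0.15 from the mean of the 8 (13.3-fold, adjusted p = 1.6e-11) and 2.86 from the 5 lymphoid populations, while the distance to the CD8 T cells was 0.71. Klri1, a lectin-like receptor of NK cells, was at 10.15 and 10.61, close to the NK cells at 10.32 and below the dendritic cells at 11.99, while CD4, CD8 and Treg cells lay between 4.61 and 4.85. Themis, a signalling adaptor needed for T cell selection in the thymus, was at 11.38 and 11.56, near CD4 T cells at 11.40 and CD8 T cells at 11.65 and far above the NK cells at 6.17. Dapl1, a gene of resting T cells, was at 11.77 and 11.94, below the CD8 T cells at 13.00.

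The type 17 programme comprised genes linked to IL-17-producing lymphocytes, of which 26 of 29 listed were measured. In gamma delta T cells 12 of the 26 were higher than the mean of the 8 and none lower, with a median difference of 0.92 against 0.02 over all genes. At an unadjusted p under 0.05, 2 were lower at any fold. Against the 5 lymphoid populations 12 of 26 were higher again, with none lower (1 at an unadjusted p under 0.05), and the median was 0.80 against 0.01. Over all genes, 1.24% were higher than the mean of the 8 and 0.643% than the lymphoid mean. Against NKT cells alone 10 of 26 were higher and 6 lower, where 1.11% and 0.881% of all genes were. The summed intensity of the list was 18039 to 19042 in gamma delta T cells and higher in NKT cells, at 25504 to 25946. Il23r, Blk, 5830411N06Rik and Sox4 of this list passed against every population. Blk, a Src-family kinase of B cells and of IL-17-producing gamma delta T cells, was at 8.88 and 9.02, against dendritic cells at 7.64, NK cells at 7.13 and NKT cells at 7.09. Cd163l1, also called Scart1, was at 8.28 and 8.41 against 6.66 to 7.58 on the other arrays, a difference of 1.29 ± 0.11 from the mean of the 8. Il17re, a receptor chain for IL-17C, was at 8.04 and 7.67 against 6.51 to 7.20. Its difference of 1.05 ± 0.11 fell to 0.86 without gamma delta replicate 2.

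Other members of the list were shared with NKT or myeloid cells. Cxcr6, a chemokine receptor of tissue-homing lymphocytes, was at 10.35 and 10.39 in gamma delta T cells and at 12.54 in NKT cells, and Rora, a nuclear receptor, was at 8.91 and 8.92 against 10.17 in NKT cells. Il7r, the IL-7 receptor alpha chain, was at 12.55 and 12.64, near NKT cells (12.78), CD4 T cells (12.53) and CD8 T cells (12.47). Ahr, a ligand-activated transcription factor, was at 9.77 and 9.89, below the dendritic cells at 11.10 but above every lymphoid array (7.18 to 9.03). Tmem176b, a membrane protein of lymphocytes and myeloid cells, showed the same arrangement at 9.82 and 9.76, with dendritic cells at 11.82 and lymphoid arrays at 6.83 to 8.83. Without the macrophages, the differences of Rora and Il18r1 from the mean fell to 0.94 and 0.65, and without the dendritic cells to 0.90 each.

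The cytokines themselves did not pass. Il17a was at 6.86 and 6.47 against 6.20 to 6.77 on the other arrays, a difference of 0.19 ± 0.11 (adjusted p = 0.30), and Il17f at 7.24 and 7.27 against 6.86 to 7.24, a difference of 0.21 ± 0.08 (adjusted p = 0.086). Their levels lay near the median of all genes. Sox13, a SOX factor of the gamma delta lineage, was at 8.34 and 8.47 against 7.48 to 7.94, so that its groups did not overlap, but its difference of 0.75 ± 0.09 was under the 2-fold limit. Ccr6, a chemokine receptor of IL-17-producing cells, was at 7.63 and 7.52, with Treg at 8.05 and dendritic cells at 7.95. In a sorted pool of many cells, fewer cells of a type and less RNA per cell cannot be told apart.

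**Figure D3:**
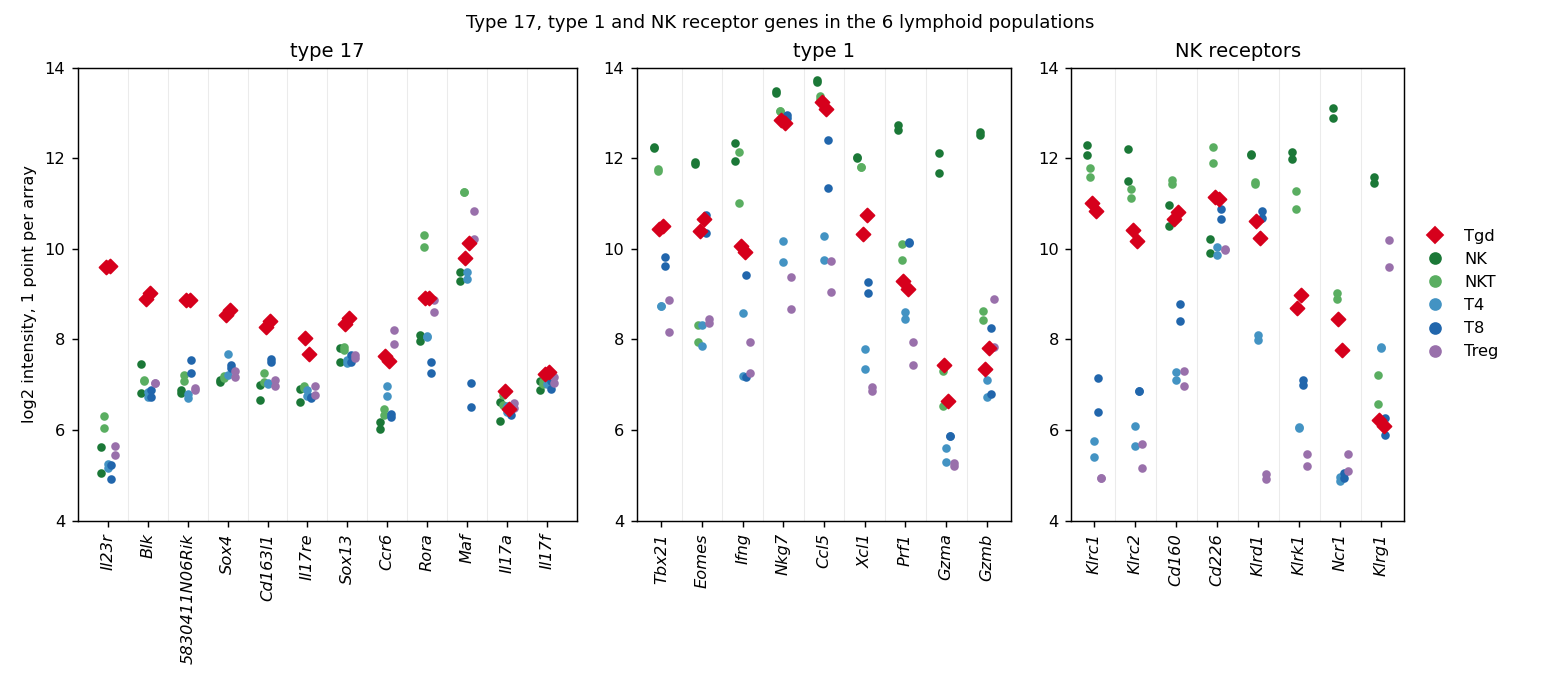
Log2 intensity (vertical axis, 1 point per array) of type 17, type 1 and NK receptor genes in the 6 lymphoid populations, gamma delta T cells (Tgd) as red diamonds. The diamonds stand above all circles for Il23r, Blk, 5830411N06Rik, Sox4, Cd163l1 and Il17re, and between the NK cells and the CD4 T cells for Tbx21, Nkg7 and Klrc1.

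The type 1 and cytotoxic programme held 23 measured genes, of which 11 were higher than the mean of the 8 and none lower (2 at an unadjusted p under 0.05), with a median of 0.92. The position of gamma delta T cells was intermediate. They were higher in 14 of 23 against CD4 T cells, in 14 against Treg and in 6 against CD8 T cells, where 1.2%, 1.19% and 1.3% of all genes were higher. Against NK cells 14 of 23 were lower and none higher (2 at an unadjusted p under 0.05), where 1.97% of all genes were lower, and against NKT cells 7 were lower and 2 higher. Ccl5, a chemokine of memory and killer lymphocytes, was at 13.25 and 13.08, near the NKT cells at 13.34 and above CD8 T cells at 11.87 and CD4 T cells at 10.01. Nkg7, a granule membrane protein, was at 12.84 and 12.79, near CD8 T cells at 12.92 and NKT cells at 13.04, against 13.45 in NK cells and 9.94 in CD4 T cells. Its difference of 1.14 from the lymphoid mean kept its size without either gamma delta array (1.11 and 1.16) but with adjusted p of 0.055 and 0.051.

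Eomes, the T-box factor of NK cells and memory CD8 T cells, was at 10.40 and 10.65, with CD8 T cells at 10.54 inside that range, below NK cells at 11.89 and above NKT cells at 8.13. Its call against the lymphoid mean was lost without gamma delta replicate 3 (a difference of 0.99, adjusted p = 0.0235). Tbx21, the related factor T-bet, was at 10.45 and 10.50, above CD8 T cells at 9.71 and below NKT cells at 11.74 and NK cells at 12.24. Ifng was at 10.05 and 9.94, between CD8 T cells at 8.30 and NKT cells at 11.57, with NK cells at 12.14. It exceeded the mean of the 8 by 1.56 ± 0.40 (adjusted p = 0.0098), and with either gamma delta array left out the adjusted p was 0.12 or 0.095. Perforin forms pores in target cells, and granzyme B is a protease that enters through them and triggers cell death. Prf1 was at 9.29 and 9.12 against 12.68 in NK cells and 10.14 in CD8 T cells, and Gzmb at 7.35 and 7.81 against 12.54 in NK cells and 8.52 in NKT cells. The difference of Gzmb from the lymphoid mean was -1.19 ± 0.27 (adjusted p = 0.014), and it was -0.96 and -1.42 with the one or the other gamma delta array left out (adjusted p = 0.29 and 0.070).

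Receptors of NK cells followed the same order. Of 21 measured, 10 were higher than the mean of the 8 and 2 lower (Tyrobp and Klrg1). The call of Tyrobp, an adaptor that myeloid cells carry too, was lost without macrophages (-0.81) and without dendritic cells (-0.87). Against NK cells 18 of 21 were lower and 1 higher, and against NKT cells 9 were lower and none higher (1 at an unadjusted p under 0.05). In contrast, 19 were higher than in CD4 T cells, 19 higher than in Treg and 14 higher than in CD8 T cells. Over all genes, 1.97% were lower than in NK cells and 0.881% lower than in NKT cells. The shares higher than in CD4 T cells, Treg and CD8 T cells were 1.2%, 1.19% and 1.3%. The sum of their intensities was 13473 to 14076 in gamma delta T cells, against 75469 to 78312 in NK cells, 30905 to 32298 in NKT cells and 3118 to 3123 in CD4 T cells. The 5 members with the greatest difference from the mean of the 8 were Klrc1, Klrc2 and Klrc3, the CD94 partners of the NKG2 family, with Cd160 and Cd226. Against the lymphoid mean 6 of 21 were higher and 1 lower, where 0.643% and 0.137% of all genes were. The 6 were Klrc1, Klrc2, Klrc3, Cd160, Cd244a and Klra6. The call of Klra6 was lost in 8 alternatives (differences 0.93 to 0.99). Klrc1, the inhibitory NKG2A chain, was at 11.02 and 10.83 against NK cells at 12.18, NKT cells at 11.68 and CD8 T cells at 6.77, and its difference of 3.70 ± 0.18 from the mean of the 8 was 13.0-fold. Klrc2, the activating NKG2C chain, was at 10.41 and 10.17 and Klrc3 at 7.87 and 7.96. Cd160, a receptor for HVEM, was at 10.65 and 10.81, with NK cells at 10.73 and NKT cells at 11.48. Klrg1, an inhibitory receptor of terminally differentiated cells, went the other way at 6.22 and 6.08, against 11.52 in NK cells, 9.90 in Treg, 7.83 in CD4 T cells and 6.07 in CD8 T cells, a difference of -2.29 ± 0.15 from the lymphoid mean (adjusted p = 2.8e-08). Ncr1, the NKp46 receptor of NK cells, was at 8.46 and 7.77 against 13.00 in NK cells, 8.96 in NKT cells, 7.91 in dendritic cells and 4.92 to 5.28 in CD4, CD8 and Treg cells, and its difference from the mean of the 8 was 0.87 without gamma delta replicate 2 and 0.93 without macrophages. The part of any NK cells in these levels was not tested.

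The CD3 complex and proximal signalling genes separated T cells from the rest. Of 20 measured, 13 were higher than the mean of the 8 and 1 lower, with a median of 1.44. Against the 5 lymphoid populations 2 were higher (Themis and Trat1) and none lower (5 at an unadjusted p under 0.05), with a median of 0.02. Cd3g was at 12.52 and 12.57, with NKT, CD4, CD8 and Treg cells at means of 12.31 to 12.51 and above NK cells at 9.05. Trat1, an adaptor bound to the CD3 zeta chain, was at 9.79 and 9.92, with CD4 T cells at 10.24, Treg at 9.93, NKT cells at 8.98 and CD8 T cells at 8.28. Lat, the adaptor phosphorylated by ZAP-70, was at 11.93 and 12.03, against 10.66 in NK cells and 11.85 to 12.22 in the other T cell populations. Syk, a kinase of B and myeloid cells, was the 1 member that was lower than the mean, at 7.30 and 7.26 against 10.43 to 11.90 in NK cells and the 3 myeloid populations and 6.56 to 6.79 in the other T cells. Fcer1g, an adaptor that replaces CD3 zeta in some gamma delta T cells, was at 10.24 and 9.71, below NKT cells at 10.99 and above CD4 T cells at 7.71, and did not pass against the mean of the lymphoid populations (0.75 ± 0.13). Without macrophages, the differences of Zap70 and Ptprcap from the mean were 0.80 and 0.78, and those of Tespa1 and Txk 0.97 and 1.00.

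Coreceptor genes divided. Cd8b1, the beta chain of CD8, was at 9.24 and 9.28, below CD8 T cells at 12.01 and above CD4 T cells at 8.58 and NKT cells at 6.35, a difference of 1.63 ± 0.10 from the mean of the 8. Cd4 and Zbtb7b, the latter encoding the CD4 lineage factor ThPOK, were lower, with differences of -1.67 and -1.17 from that mean. Zbtb7b was at 8.52 and 8.13 against 10.34 in CD4 T cells, 9.94 in NKT cells and 6.66 in CD8 T cells, and its difference was -0.97 without gamma delta replicate 3.

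Of 32 transcription factors of lymphocytes, 12 were higher than the mean of the 8 and 1 lower, with a median of 0.76, and 4 were higher and 2 lower than the lymphoid mean, with a median of 0.14. Ikzf2 encodes Helios, a factor of Treg and innate-like T cells. It was at 11.22 and 11.32, near Treg at 11.53, above NKT cells at 10.54 and CD4 T cells at 9.45. Id3, an inhibitor of E proteins that acts in gamma delta lineage choice, was at 9.34 and 8.86 against 6.17 to 8.55 on the other arrays, above all of them, with a difference of 1.84 ± 0.11 from the mean of the 8. Zbtb16, which encodes the innate-like factor PLZF, was at 9.75 and 10.06 against 11.45 in NKT cells and 8.54 in CD4 T cells. Its difference of 1.02 from the lymphoid mean fell to 0.86 without gamma delta replicate 3 and was between 0.95 and 0.99 under 4 other alternatives. Prdm1, the gene of Blimp-1, was at 6.57 and 6.51, near CD8 T cells at 6.15 and below all 7 other populations, and differed by -1.57 ± 0.13 from the mean of the 8. Foxp3, the Treg factor, was at 7.61 and 7.59 against 12.01 in Treg and 9.97 in CD4 T cells. Ikzf3, Lef1 and Tox exceeded the mean of the 8 by 2.10, 1.99 and 1.97, with differences of 0.41, 0.33 and 0.72 from the lymphoid mean. Bcl11b fell under the limit without macrophages (0.84), dendritic cells (0.82) or gamma delta replicate 2 (0.89), and Gata3 and Runx3 without macrophages (0.94 and 0.98).

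Homing genes were higher in 8 of 27 against the mean of the 8 and lower in 1 (Itgam), and higher in 4 of 27 against the lymphoid mean with none lower (7 at an unadjusted p under 0.05). Beside Ccr9 and Cxcr6, the 4 included the integrin chains Itgae and Itgb3. Itgae, which pairs with beta 7 to bind E-cadherin on epithelium, was at 9.41 and 9.76 against 10.18 in CD8 T cells, 8.80 in Treg and 6.93 in CD4 T cells. Itgb3 was at 10.71 and 10.54, with NKT cells at 11.22 and CD4 T cells at 10.56, and its difference of 1.06 was 0.98 without gamma delta replicate 2. S1pr1, the receptor that lets lymphocytes leave tissues, was at 11.60 and 11.68, near CD4 T cells at 11.66 and above NKT cells at 9.41. Cd69, an activation antigen, had a difference of 1.00 ± 0.20 that was under the limit in several alternatives, at 0.58 without macrophages (adjusted p = 0.062). Without macrophages Ccr7 and Gpr183 also fell to 0.82 and 0.88.

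Cytokine receptors were higher in 9 of 24 and lower in none against the mean of the 8 (6 lower at an unadjusted p under 0.05), and higher in 2 (Il23r and Csf2rb) and lower in none against the lymphoid mean (2 lower at an unadjusted p under 0.05). Il2rb, the receptor chain shared by IL-2 and IL-15, was at 12.32 and 12.30, near Treg at 12.34 and below NK cells at 12.96. Il2ra, the antigen CD25, was at 9.75 and 9.99, below Treg at 12.66 and above CD8 T cells at 6.87. It was also below the NKT cells (10.86 and 11.03) and the CD4 T cells (11.01 and 10.99). Costimulatory and inhibitory receptors were higher in 9 of 28 and lower in none against the mean of the 8 (5 lower at an unadjusted p under 0.05). Cd27, which marks IFNg-producing gamma delta T cells, was at 12.11 and 12.35, with CD4, CD8 and Treg cells at 12.04 to 12.21, NKT cells at 11.70 and NK cells at 11.43. Cd28 was at 10.62 and 10.82 against 11.57 in NKT cells and 10.52 in CD8 T cells. Slamf7 was at 10.93 and 11.11, below dendritic cells at 12.23, NK cells at 11.44 and NKT cells at 11.63 and above CD8 T cells at 9.39. Slamf1 was below the lymphoid mean with a difference of -1.04, which was under the limit without gamma delta replicate 2 (-0.90), NK replicate 3 (-0.99) or NKT replicate 2 (-0.99). Il6st (1.01) was under it in 5 alternatives (0.96 to 1.00), and Il12rb1 (1.07) without macrophages (0.87), dendritic cells (0.92) or gamma delta replicate 3 (0.98). Il21r was at 0.77 without macrophages.

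Among the genes lower than the mean of the 8, Entpd1, the ectonucleotidase CD39, differed most, at 7.09 and 7.16 against 12.53 in granulocytes, 11.01 in dendritic cells and 9.41 to 9.93 in NK, NKT and Treg cells, a difference of -2.59 ± 0.10 (adjusted p = 6.5e-12). Entpd1 was also below the lymphoid mean, by a difference of -1.55 ± 0.10. It was not particular to gamma delta T cells, being lower still in CD8 T cells (6.85 and 6.66) and at 7.69 and 7.70 in CD4 T cells. Ifitm6, a myeloid interferon-induced membrane protein, was at 5.68 and 5.82 against 11.36 to 12.78 in the 3 myeloid populations and 5.47 to 5.75 in the 5 lymphoid ones. Itgam, the CD11b integrin chain, was at 6.93 and 6.78 against 12.64 in macrophages and 11.02 in NK cells. Bst1, Pla2g7, Atp6v0a1, Clec4e, Adgre1, Anxa1 and Slfn4 followed, the last 6 with differences of -1.97 to -1.88, and their differences from the lymphoid mean, -0.49 to 0.30, did not pass. Als2cl, a guanine nucleotide exchange factor, was lower than the lymphoid mean by a difference of -1.81. Its levels were 6.90 and 6.70, against 10.29 in CD4 and 10.04 in CD8 T cells, and NK cells were lower at 6.14 and 6.35. A second probe set of Als2cl gave a difference of -0.45.

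Of the 127 genes higher than the lymphoid mean, 65 had a myeloid population as the highest other one, namely granulocytes in 27, dendritic cells in 21 and macrophages in 17, and 40 were highest in gamma delta T cells. Plxdc2, a membrane protein related to the plexins, was one of the first kind. It was at 10.37 and 10.30 against 12.98 in macrophages, 7.09 in dendritic cells and 6.33 to 7.24 in the lymphoid populations, 3.57 ± 0.12 above their mean (adjusted p = 2.9e-12). The following genes were picked after their values were seen. Lilr4b, an inhibitory receptor of the leukocyte immunoglobulin-like family, was at 9.56 and 9.86, with granulocytes at 12.71, NK cells at 9.21 and CD4 T cells at 6.06. Ccl6, a chemokine, was at 8.63 and 8.49 against 12.27 in macrophages and 5.72 to 6.16 in the lymphoid populations. Csf2rb, the beta chain of the receptors for GM-CSF, IL-3 and IL-5, was at 8.31 and 8.91 against 11.92 to 12.57 in myeloid and 6.64 to 7.13 in lymphoid populations. Rgs18 was 2.10, C3ar1 1.77 and Csf2rb2 1.72 above the lymphoid mean.

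Myeloid marker lists were read beside these genes. All 10 macrophage and monocyte markers of 17 that passed against the mean of the 8 were lower, and none of the 17 passed against the lymphoid mean (1 higher and 1 lower at an unadjusted p under 0.05). Their summed intensity was 2133 to 2670 in gamma delta T cells, within the 1628 to 3350 of the 5 other lymphoid populations, and 92671 to 97174 in macrophages. For 12 granulocyte markers the sum was 1022 to 1471, against 744 to 960 in CD4, CD8 and Treg cells, 903 to 1460 in NK cells, 2016 to 2334 in NKT cells and 91105 to 103151 in granulocytes. Of these 12, 6 were lower than the mean of the 8 and Cxcr2, a neutrophil chemokine receptor, was higher than the lymphoid mean, at 6.65 and 6.75 against 12.45 in granulocytes and 4.46 to 5.14 in lymphoid populations. Ly6g, by contrast, was at 6.21 and 6.15 with lymphoid arrays at 5.75 to 6.34. Replicate 2 was at least 2-fold above replicate 3 for the granule genes Ngp (7.68 and 6.27), Lcn2 (8.14 and 6.85) and S100a8 (6.70 and 5.53). For 15 dendritic cell markers the sum was 6682 to 7104, above the 2249 to 6126 of the 5 other lymphoid populations, against 44134 to 46843 in dendritic cells. Ccr9, at 12.17 and 12.27, belongs to this list as a marker of plasmacytoid dendritic cells and made up most of the gamma delta sum. It was the only 1 of the 15 that passed against the lymphoid mean, where the median of the list was 0.05 (5 higher and 1 lower at an unadjusted p under 0.05). The defining genes Siglech (6.76 and 6.58) and Flt3 (6.38 and 6.40) lay within the lymphoid arrays. The calls of C1qa, C1qc, Cd14, Cd68, Capg, Pf4 and Mertk against the mean of the 8 were lost without macrophages (differences -0.99 to -0.28), that of Csf1r without macrophages or dendritic cells (-0.71 and -0.96), and those of Clec9a, Dnase1l3, Wdfy4, Retnlg, Mmp8, S100a8 and S100a9 without dendritic cells (-0.78 to -0.25). Several of these also rested on single arrays. Without gamma delta replicate 3 the difference was -0.48 for S100a8 (adjusted p = 0.63), -0.90 for S100a9 (adjusted p = 0.131), -0.95 for Mmp8 (adjusted p = 0.294), -1.01 for Retnlg (adjusted p = 0.149) and -0.96 for Clec9a. Without gamma delta replicate 2 it was -0.94 for Dnase1l3 and -1.41 for Mmp8 (adjusted p = 0.0749), and without dendritic cell replicate 2 it was -0.94 for S100a8 and -0.95 for S100a9. The part of myeloid cells or their RNA in the myeloid-shared genes was not tested.

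A list of 13 basophil and mast cell markers was made after Cpa3 and Ms4a2 had been seen among the 17 genes, and carries no test of its own. Cpa3, the carboxypeptidase of mast cells and basophils, was at 7.85 and 7.91, with dendritic cells at 6.16 and all others between 4.89 and 5.36. Ms4a2, the beta chain of the high-affinity IgE receptor, was at 5.14 and 5.80 against 3.92 to 4.50. Its gap of 1.11 was 0.78 without gamma delta replicate 3, 0.97 without CD8 replicate 3 and 0.98 after median centring. Mcpt8, a basophil protease, was at 6.37 and 6.58 against 4.93 to 6.05, Fcer1a at 5.29 and 4.76 against 4.10 to 4.70, and Cd200r3 at 5.08 and 5.27 against 3.85 to 4.65. Each of these was higher on both gamma delta arrays than on all others, all but Cpa3 at levels below the median of all genes. Kit was at 9.10 and 9.52, with dendritic cells at 12.05 and NK cells at 8.54. The mast cell proteases Mcpt4 (4.37 and 4.33), Tpsb2 (6.40 and 6.43) and Cma1 (5.66 and 5.60) lay within the range of the other arrays. The summed intensity of the list was 1747 to 2025 in gamma delta T cells, 761 to 916 in NKT, CD4, CD8 and Treg cells and 1555 to 1808 in NK cells. It was higher in granulocytes (8864 to 8886) and dendritic cells (5861 to 6265), and 1623 to 1729 in macrophages. The part of basophils in these levels was not tested.

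B cell markers also differed. Of 11 measured, 2 were higher than the mean of the 8 and none lower. At an unadjusted p under 0.05 and any fold, 5 were higher and none lower, and 6 and none against the lymphoid mean. Cd79b, a signalling chain of the B cell receptor, was at 10.46 and 10.38, above dendritic cells at 9.82, CD8 T cells at 9.91 and Treg at 9.17. Ms4a1, the gene of CD20, was at 7.34 and 8.13, between NK cells at 7.58 and dendritic cells at 9.62 by its mean, with other lymphoid populations at 5.70 to 6.48. Its call was lost without gamma delta replicate 3 (difference 0.73) or the macrophages (0.97). Cd79a was at 7.40 and 7.68 and Pax5, the B lineage factor, at 7.03 and 7.10, both within the other arrays. Cd79a lay above the NKT, CD4, CD8 and Treg arrays, which reached 7.11, with NK cells at 7.52 and 7.66. Cd22 (7.87 and 8.16) and Ebf1 (6.10 and 6.35) were also above those arrays, which reached 7.59 and 5.82. At an unadjusted p under 0.05, 7 of the 11 were higher than in NKT cells and 7 than in CD8 T cells. In CD4 T cells and Treg the count was 6 each, and none was lower in these 4 contrasts. The summed intensity was 2620 to 2808 in gamma delta T cells, 1617 to 2203 in NK cells, 1734 to 1929 in CD8 T cells and 1000 to 1609 in the other lymphoid populations. The class II gene H2-Aa was at 8.70 against 7.91 on replicate 2. The part of B cells in these values was not tested.

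Because all mice had received IFNg, the position of gamma delta T cells in the interferon response was read by comparing populations. The receptor and its signalling genes did not set gamma delta T cells apart. None of 14 passed against the mean of the 8 or the lymphoid mean in limma, and at an unadjusted p under 0.05 the counts at any fold were 2 higher and 7 lower, and 8 higher and 2 lower. Ifngr1, the ligand-binding chain, was at 11.82 and 11.86, below NK cells at 12.15 and above CD4 T cells at 10.67. Ifngr2, the second chain, was at 9.57 and 9.62, above NK cells at 7.16 and NKT cells at 7.30 and below CD4 T cells at 10.61. Irf1, an early target of the pathway, was at 11.82 and 11.85, against 11.03 in NK and 11.04 in NKT cells, 11.93 to 12.22 in CD4, CD8 and Treg cells and 12.91 in granulocytes.

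The interferon-inducible GTPases, which guard the cytosol against intracellular pathogens, were next. Of 12 measured, 11 were higher in gamma delta T cells than in NK cells and 4 higher than in NKT cells, where 1.79% and 1.11% of all genes were higher. None passed in either direction against CD4 T cells (0 higher and 6 lower at an unadjusted p under 0.05) or CD8 T cells (none at an unadjusted p under 0.05 either), and 1 was lower against Treg. The medians were 1.75 against NK, 0.83 against NKT, -0.25 against CD4, 0.07 against CD8 and -0.44 against Treg. Iigp1, an immunity-related GTPase, was at 10.18 and 10.16, against 6.76 in NK cells, 8.38 in NKT cells, 10.99 in CD4 T cells and 11.82 in macrophages. Gbp11 was at 10.26 and 10.71, with CD4 T cells at 10.67 and NK cells at 7.71, and its difference of 1.15 from the mean of the 8 was 0.92 without gamma delta replicate 3. Gbp2b was lower than that mean, at 6.54 and 6.43 against 11.48 in macrophages and 8.59 in Treg, and without macrophages its difference was -0.50. Against the lymphoid mean none of the 12 passed (9 higher and 1 lower at an unadjusted p under 0.05).

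Type I interferon-stimulated genes, many of which IFNg induces as well, were higher than the lymphoid mean in 9 of 31 and lower in none (none at an unadjusted p under 0.05 either), with a median of 0.57. Against NK cells 24 of 31 were higher and none lower. Against CD8 T cells 5 were higher and 1 lower, against NKT cells 4 and none, and against CD4 T cells and Treg 3 and 2 each. Over all genes, 0.643% were higher than the lymphoid mean and 1.79% higher than in NK cells. The shares higher and lower were 1.3% and 0.365% for CD8 T cells and 1.11% and 0.881% for NKT cells. They were 1.2% and 0.608% for CD4 T cells and 1.19% and 0.866% for Treg. Granulocytes lay above, with 20 of 31 lower in gamma delta T cells, where 7.69% of all genes were lower. Rsad2, the gene of viperin, was at 9.15 and 9.68 against 6.96 to 8.97 on the 10 other lymphoid arrays, and above all of them. Its difference from their mean was 1.47 ± 0.21 (adjusted p = 0.00026), with granulocytes at 12.33. Slfn5 was at 10.32 and 10.42 against 6.70 in NK cells and 10.03 in Treg. Usp18, a negative regulator of interferon signalling, was at 11.34 and 11.49 against 8.77 to 11.24, a difference of 1.12 ± 0.13. Ifit3 was at 10.41 and 10.55 against 7.34 to 10.33, and Oasl1 at 9.78 and 9.86 against 7.92 to 9.58. The differences of Mx1 (1.04) and Mx2 (1.14) were 0.81 and 0.98 without gamma delta replicate 3. Against the mean of the 8, 1 was higher (Mx2) and 1 lower (Oas2, -1.12, with -0.93 and -0.87 without macrophages or dendritic cells). The shares of all genes there were 1.24% and 1.29%. Mx2, whose difference from that mean was 1.05, was at 0.90 to 1.00 without gamma delta replicate 3, CD8 replicate 3 or NKT replicate 1 and after median centring. This count of 1 higher depends on the setting. Ifit1 had a difference of 1.00, just under the limit, and passed, among others, without dendritic cells (1.10), without gamma delta replicate 2 (1.09) and after quantile normalization (1.12), with 0.73 without macrophages. Mx1 (0.82) passed without dendritic cells (1.13) or without gamma delta replicate 2 (1.06), and Ifit3 (0.84) without dendritic cells (1.07).

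**Figure D4:**
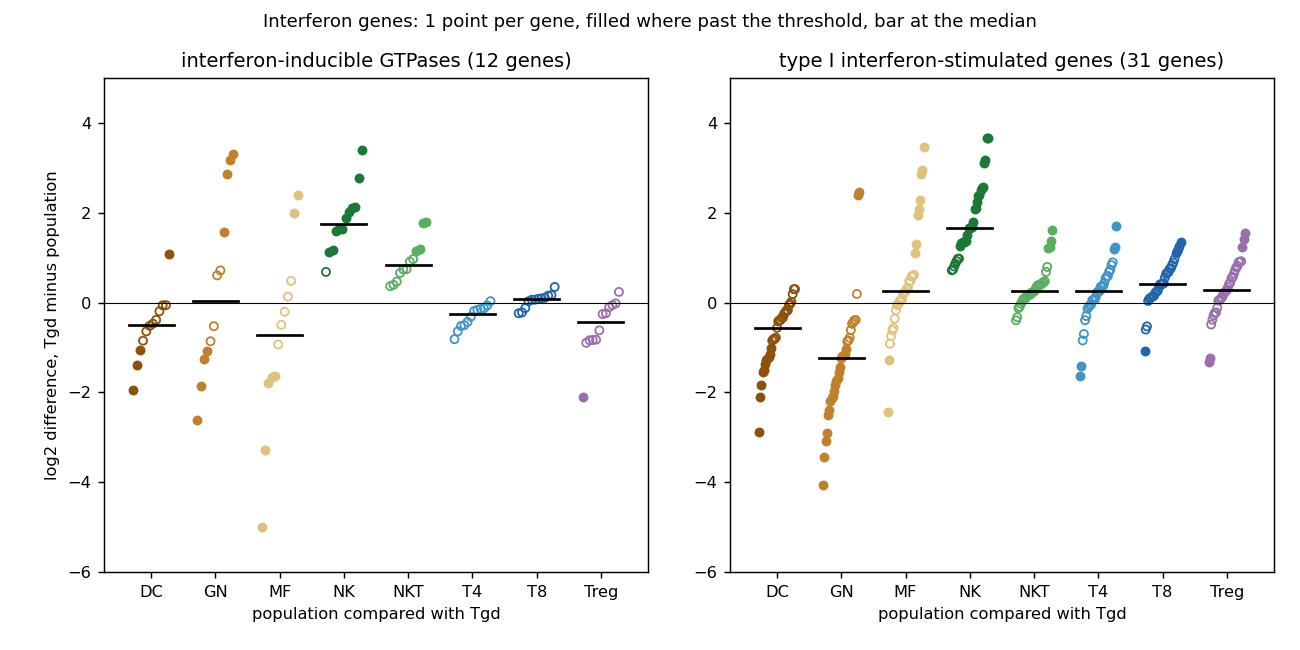
Difference in log2 intensity, gamma delta T cells (Tgd) minus each population, for 12 interferon-inducible GTPases (left) and 31 type I interferon-stimulated genes (right), 1 point per gene, filled where the adjusted p was under 0.05 and the difference at least 2-fold. The bars at the median are highest against NK cells (1.75 and 1.66) and lie between -0.44 and 0.41 against CD4, CD8 and Treg cells.

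Antigen presentation and feedback genes gave few differences from the mean of the 8 or the lymphoid mean. None of 15 class I presentation genes passed against either mean (4 higher and 3 lower against the mean of the 8 at an unadjusted p under 0.05, and 1 and 1 against the lymphoid mean). None of 10 class II genes did (2 and 4, and 3 and 0). Against dendritic cells alone, 9 of these 10 were lower and 0 higher, with a median of -3.52. Of all genes, 6.06% were lower there. Against macrophages 5 were lower and 2 higher, and against granulocytes 1 was lower and 3 higher. Tap1, the peptide transporter, was at 11.47 and 11.57 with CD8 T cells at 11.79 and NK cells at 10.67. Of 11 feedback and checkpoint genes, Usp18 alone passed against the lymphoid mean and none against the mean of the 8 (2 higher and 6 lower at an unadjusted p under 0.05). Against granulocytes alone 6 of the 11 were lower and 1 higher, where 7.69% and 12% of all genes were. Against dendritic cells 4 were lower and 1 higher, and against macrophages 4 and 2. Cd274, the ligand PD-L1 of the receptor encoded by Pdcd1, was at 11.23 and 11.34, against 11.28 in CD4 T cells, 9.96 in NKT cells and 9.22 in NK cells. Socs1 was at 9.75 and 9.57 against 10.33 in CD4 T cells and 8.97 in NK cells.

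Among 20 immediate early genes, which stress and cell handling as well as signalling can raise, 2 were higher than the mean of the 8 and 1 lower. Nr4a2, an orphan nuclear receptor induced by antigen receptor signalling, was at 10.60 and 10.91, near NK cells at 10.88 and dendritic cells at 10.01 and above Treg at 9.15 and CD8 T cells at 8.50. Its difference of 1.70 ± 0.35 from the lymphoid mean was 1.85 and 1.54 with either gamma delta array left out, at adjusted p of 0.057 and 0.17. Nr4a1, its relative, was at 11.10 and 11.14 with Treg at 11.18, dendritic cells at 11.26 and NK cells at 10.60, and its difference of 1.08 from the mean of the 8 had adjusted p of 0.11 and 0.14 with either gamma delta array left out and was 0.80 without macrophages. Atf3 was lower (-1.25), with -0.93 and -0.83 without macrophages or dendritic cells and -0.99 without gamma delta replicate 2. Fos was at 9.44 and 9.56 with arrays elsewhere from 6.88 to 11.35. The arrays of dendritic cells (10.23 and 10.12), NKT cells (8.76 and 8.93) and granulocytes (11.35 and 11.15) lay close together too. Fos differed more between replicates 2 and 3 of CD4 T cells (6.91 and 9.40) and CD8 T cells (6.88 and 9.47). The same held for NK cells (8.98 and 9.94) and macrophages (7.17 and 8.09). In these 4 populations and in Treg, where it was at 10.42, replicate 3 was the higher one. Of 15 cell cycle genes, Bub1 and Ccna2 were lower than the mean of the 8, at differences of -1.23 and -1.16, where macrophages were the highest. Both calls were lost without macrophages (-0.93 and -0.90) or without gamma delta replicate 2 (adjusted p = 0.10 and 0.26). None of the 15 passed against the lymphoid mean (0 higher and 1 lower at an unadjusted p under 0.05).

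**Figure D5:**
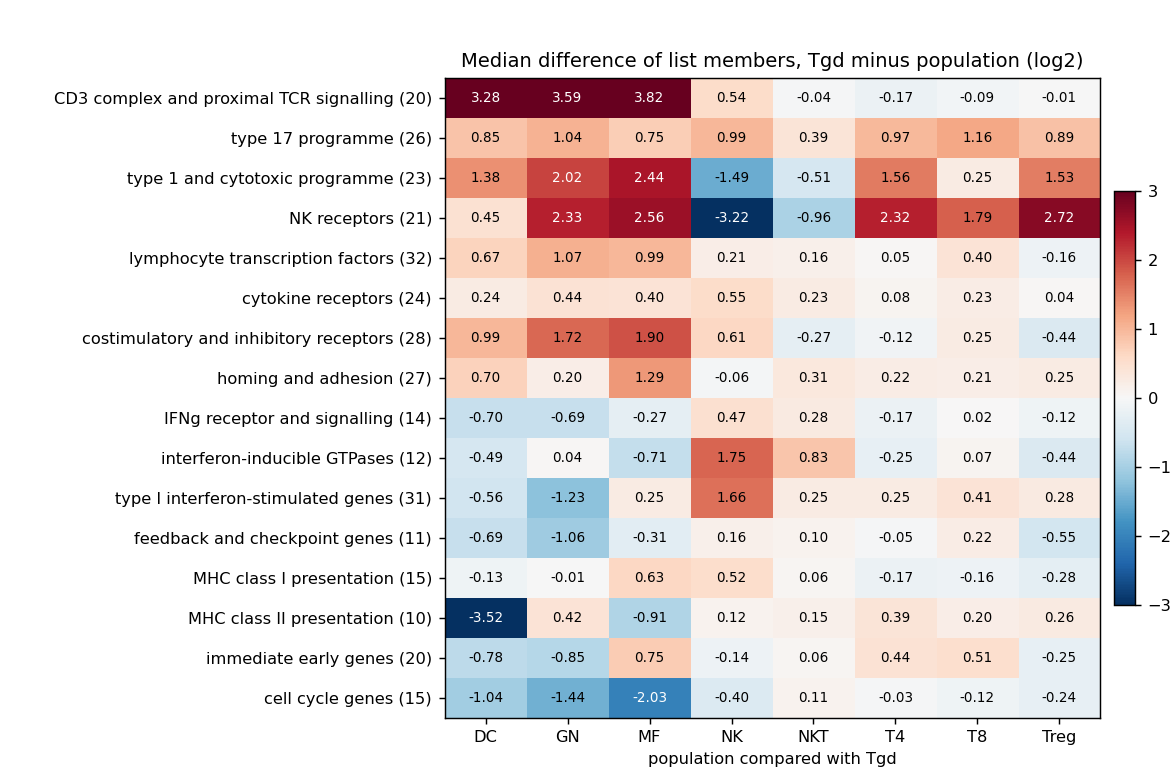
Median log2 difference of the measured members of 16 gene lists (rows, number of genes in brackets), gamma delta T cells (Tgd) minus each of the 8 other populations (columns), red where gamma delta T cells were higher. The type 17 row is positive in every column, from 0.39 against NKT cells, where 6 of the 26 genes were lower, to 1.16 against CD8 T cells. The NK receptor row runs from -3.22 against NK cells to 2.72 against Treg.

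Treg markers were read because Treg share Helios and CD25 with gamma delta T cells, although NKT and CD4 T cells had more Il2ra. Of 12 measured, 3 were higher (Ikzf2, Itgae and Il2ra) and 2 lower (Capg and Nrp1) than the mean of the 8, and 2 higher and 4 lower (Foxp3, Gpr83, Lrrc32 and Nrp1) than the lymphoid mean. Nrp1, a surface receptor of thymus-derived Treg, was at 6.28 and 6.54 against 10.29 in Treg and 8.46 in CD4 T cells, a difference of -1.41 ± 0.09. Red blood cell and platelet markers had 1 of 6 called, Pf4, which was lower (-1.09), with macrophages at 12.49. The sum of these markers was 702 to 735 in gamma delta T cells and 622 to 962 in the other lymphoid populations.

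Precursors of the microRNAs miR-181a and miR-181b, which tune antigen receptor sensitivity in developing T cells, were looked at after the values were seen, because Mir181b-1 lay just outside the list of 17. The array reads the transcript of the locus on chromosome 1 and not the mature forms, which are printed to show that both share a seed (bases 2 to 8, in capitals, ACAUUCA). Sequences are those of RefSeq on GRCm38.p6, the first at chr1:137966468-137966490 and the second at chr1:137966650-137966673, plus strand.
miR-181a-5p: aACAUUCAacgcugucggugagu
miR-181b-5p: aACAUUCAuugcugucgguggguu
Mir181b-1 was at 7.57 and 8.34 in gamma delta T cells against 5.43 to 7.23 on the other arrays, with NKT cells nearest at 7.16. Its difference was 1.66 ± 0.19 from the mean of the 8 (adjusted p = 5.3e-06), and the largest adjusted p over the 8 populations was 0.076. Mir181a-1 was at 4.45 and 4.99 against 3.73 to 4.18, a difference of 0.78 ± 0.12 that was under the 2-fold limit.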

How the data were processed

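Total RNA was hybridised to Affymetrix Mouse Gene 1.0 ST arrays (1 colour, 18 arrays). The values deposited by the authors are linear intensity per probe set, made with Affymetrix Power Tools and RMA per the submitters' processing notes. Their versions, and whether all arrays were normalized together, are not given in the sources used here. RMA shrinks differences of dim probe sets and gives no read depth, so the number of arrays limits the precision.

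Intensities were turned into log2 values. Of the 24922 probe sets, 21425 had 1 gene symbol, 1399 several and 2098 none. Symbols were updated by Entrez identifier (21347 matched). Probe sets with several symbols or none were left out. For the 921 genes with more than 1 probe set, the brightest on average was kept. In limma 3.58.1 (R 4.3.3), 1 mean per population was fitted over all 18 arrays with a trended variance (9 residual and 7.69 prior degrees of freedom). Contrasts were gamma delta T cells minus the mean of the 8 other populations, minus the mean of the 5 other lymphoid ones, and minus each. Benjamini-Hochberg adjustment ran over 19752 genes, and passing meant an adjusted p under 0.05 and a log2 difference of at least 1. The fit was tested on simulated data with known differences. Alternatives are given in the closing section.

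The members, gene lists, markers and tests were chosen with earlier results of these data known. Genes named are up to 12 above or below each population, 10 higher and 10 lower than the mean of the 8, 6 and 6 for the lymphoid mean, the receptor genes and markers, up to 5 members per list with the greatest difference and members that did not pass, and genes of the sort. Others, further list members and the lists of basophil genes, alpha and beta segments and microRNA precursors were chosen after their values were seen. Genes without a probe set of their own are not reported here.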

Additional observations from a re-analysis of the deposited data

How the results depend on the processing

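The counts of genes kept within 1.5 times under the choice of normalization (quantile or median centring), no variance trend, removal of dim genes, the mean of probe sets and lymphoid arrays alone. Leaving macrophages out of the mean of the other populations gave 148 lower genes and leaving dendritic cells out gave 159, against 254. Without the 2-fold limit, 1723 genes were higher and 1881 lower than the mean of the 8, 39 were above and 2 below each population (Dennd5a and Map4k5), and 611 were higher and 434 lower than the lymphoid mean. Leaving out 1 array at a time gave 229 to 255 higher and 231 to 278 lower genes against the mean of the 8, 15 to 17 above and 0 to 0 below each population, and 114 to 144 higher and 26 to 30 lower genes against the lymphoid mean. In these fits the population left with 1 array is assumed to vary like the others. With the replicate number as a block the counts were 244 and 281, 16 and 0, and 123 and 28, of which 235 and 248, 16, and 122 and 27 were called in the fit without it. Arrays numbered 2 of gamma delta T cells and of another population had deviations that correlated at -0.201 to 0.17. Among the 10 pairs of the 5 other populations with the same numbers, 2 and 3, the correlations were -0.006 to 0.468, with 7 over 0.1. Between gamma delta T cells and these 5 populations the correlations were -0.161 to 0.17, and the main fit did not pair them by number. Whether arrays of the same number were handled together was not tested, so the counts with the block stand beside those of the main fit. With the block, Cd69 differed from the mean of the 8 by 0.96 (adjusted p = 5.45e-06), under the 2-fold limit, and Nr4a2, Nr4a1 and Atf3 kept their calls at 1.84, 1.11 and -1.23. Of the 17 genes above each population, 10 kept the call under every alternative run, and Arpp21, Ms4a2, Prrg4, Sox4, Sox5, Trav14-1 and Trgv1 lost it in at least 1. Against the mean of the 8, 21 of the 89 genes named by rule that passed lost the call in at least 1 alternative, and none of them changed sign there. Against the lymphoid mean, the genes named by rule and all members of the lists chosen with the tests were looked at. Those that lost a call in at least 1 alternative were Eomes, Gzmb, Il17re, Itgb3, Klra6, Ms4a1, Mx1, Mx2, Nkg7, Nr4a2, Slamf1, Trav12-2, Xcl1 and Zbtb16. The gap of Trav14-1 to the nearest population turned to -0.42 with the mean of its probe sets. Having 2 arrays per population limits the precision, and low genes such as Ms4a2 rest on signals near the floor of the array.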
